A study of Mus musculus with 6 samples.

Results

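The enzymes that cut the extracellular matrix, and their natural inhibitors, were followed in lung tumors of mice given tamoxifen or oil. Members were all genes whose name in the array files was that of a numbered matrix metalloproteinase (Mmp), ADAMTS proteinase or tissue inhibitor of metalloproteinases (Timp). This rule used no measured value, and it found 46 genes among 36870 gene names on the array: 23 Mmp, 19 Adamts and 4 Timp genes. Of these, 28 were bright enough to be tested.

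All mice were Ror1f/f; CAG-CreER; SPC-hEGFRdel746-750 on the C57BL/6J strain. In words, every sample of both groups carried floxed Ror1 alleles, a Cre recombinase that tamoxifen activates, driven by the broadly active CAG promoter, and a deleted, constantly active form of human EGFR under the promoter of surfactant protein C, a product of alveolar type 2 cells. Treatment with tamoxifen or with its corn oil vehicle ran from 16 to 20 weeks of age, and tumor was taken at 20 weeks. No group received tamoxifen without the floxed alleles, so effects of the drug and of Cre cannot be told apart from loss of Ror1. Each array carried RNA of 1 tamoxifen and 1 oil sample in 2 colours. Each such couple of samples was hybridised on 2 arrays with the dyes exchanged, giving 6 arrays and 3 couples. Whether samples with different numbers came from different animals is not in the labels, so p-values measure only the spread between these samples.

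Matrix metalloproteinases are zinc-dependent enzymes, made as inactive precursors, that cut collagens, elastin and cell surface proteins. ADAMTS proteinases share the zinc site and carry thrombospondin repeats; they process proteoglycans, procollagens and von Willebrand factor. TIMPs bind the active site of the metalloproteinases, and the balance of enzyme and inhibitor is a long-standing subject in lung emphysema, fibrosis and tumor invasion. In bulk tumor RNA, fewer cells of a type and less RNA per cell cannot be told apart.

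The sequences of 3 probes are given because the results below turn on them: the probe of Timp1, which had the lowest ratio of tamoxifen over oil, and a probe each of Timp2 and Mmp12 that was not the brightest of its gene and served as a second measurement. Positions are those of the array design on build mm9. The Timp1 probe lies on chromosome X from 20451675 to 20451733, plus strand. The Timp2 probe lies on chromosome 11, minus strand, and its 60 bases are spread over 6778 bases of genome, from 118171964 to 118178741. The Mmp12 probe lies on chromosome 9, plus strand, spread over 516 bases from 7354810 to 7355325. The Timp2 and Mmp12 probes are thus laid across introns.
Timp1: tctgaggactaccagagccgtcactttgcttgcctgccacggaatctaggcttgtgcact
Timp2: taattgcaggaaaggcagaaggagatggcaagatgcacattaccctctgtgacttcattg
Mmp12: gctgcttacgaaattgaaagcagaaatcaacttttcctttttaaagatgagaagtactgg

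A run of 10 Mmp genes lies side by side on chromosome 9. AP-1, the transcription factor built from Fos and Jun proteins, is known to act on promoters of this run, so the 7-letter AP-1 motif TGANTCA, which is its own reverse complement, was searched in the promoters of all members. Promoters came from RefSeq (GRCm38.p6), as 250 bases before to 50 bases after each gene's start. Of 32 members with an entry, 8 held the motif, and all 8 were among the 10 genes of the run, while 0 of 22 members elsewhere held it. Over the whole table, 2565 of 32851 promoters (7.81%) did. The 8 genes were Mmp13, Mmp12, Mmp1b, Mmp3, Mmp1a, Mmp10, Mmp20 and Mmp7, and the run's other genes were Mmp8 and Mmp27. A match is a description of letters and not a binding site. The 250 bases before the start are printed for the 4 genes that held the motif and were bright enough to be tested, with the motif in capitals.
Mmp13: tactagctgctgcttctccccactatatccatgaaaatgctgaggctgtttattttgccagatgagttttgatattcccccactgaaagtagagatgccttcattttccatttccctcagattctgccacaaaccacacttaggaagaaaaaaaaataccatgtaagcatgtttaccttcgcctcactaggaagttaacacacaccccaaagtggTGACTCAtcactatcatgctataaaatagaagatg
Mmp12: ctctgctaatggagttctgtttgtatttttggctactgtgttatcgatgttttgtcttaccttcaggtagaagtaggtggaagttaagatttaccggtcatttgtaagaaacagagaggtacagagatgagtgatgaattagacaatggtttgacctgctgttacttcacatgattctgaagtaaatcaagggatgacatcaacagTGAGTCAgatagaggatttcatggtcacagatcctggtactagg
Mmp3: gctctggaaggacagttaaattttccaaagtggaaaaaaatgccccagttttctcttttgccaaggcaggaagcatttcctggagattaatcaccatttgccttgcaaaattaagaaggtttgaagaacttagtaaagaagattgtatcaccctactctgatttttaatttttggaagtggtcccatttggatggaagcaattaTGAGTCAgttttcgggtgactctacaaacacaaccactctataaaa
Mmp7: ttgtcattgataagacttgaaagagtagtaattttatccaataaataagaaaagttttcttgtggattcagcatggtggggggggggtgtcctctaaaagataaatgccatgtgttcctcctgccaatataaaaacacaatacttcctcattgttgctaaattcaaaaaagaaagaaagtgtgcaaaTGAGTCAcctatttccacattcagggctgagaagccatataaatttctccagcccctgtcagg

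These windows lie on the plus strand at chr9:7272264-7272513 (Mmp13), chr9:7347124-7347373 (Mmp12), chr9:7445572-7445821 (Mmp3) and chr9:7691840-7692089 (Mmp7). Counted from the gene's start, with the base before it as -1, the motif stood at -35 to -29 in Mmp13, -44 to -38 in Mmp12, -46 to -40 in Mmp3 and -63 to -57 in Mmp7. The 4 genes were printed because they held the motif, so that they share it follows from this choice. Mmp8, the other tested gene of the run, did not hold it.

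All 6 arrays were on 1 slide with 1 scan day, and 51.8% to 58.8% of probes were well above background by array and channel. All 11 alveolar type 2 markers, among them the surfactant genes, were above background in all 12 readings (6 arrays in 2 channels), so the defining markers of lung epithelium were present. Ror1 itself had a higher mean in the samples labelled tamoxifen, with log2 ratios of 0.58, 0.44 and 0.18 in couples 1, 2 and 3 (mean 0.40 ± 0.21, SD; limma, adjusted p = 0.69). A deletion would give the opposite sign. The sources used here do not name the floxed exon, and a probe outside it checks nothing, so groups are named below as samples labelled tamoxifen and oil. The samples of couple 1 also differed in sex-linked genes: Xist had log2 ratios of -2.13, 0.09 and 0.10 in couples 1, 2 and 3, and the Y-linked Eif2s3y 3.71, 0.14 and 0.63. All ratios below are log2 of tamoxifen over oil, and errors are the SD over 3 couples.

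Of 46 members, 17 were well above background in no reading with any probe. These were the collagenases Mmp1a and Mmp1b, the gelatinase Mmp9, the stromelysin Mmp10, the membrane-anchored Mmp16, Mmp24 and Mmp25, and Mmp20, Mmp21 and Mmp27, together with Adamts3, Adamts5, Adamts13, Adamts16, Adamts19, Adamts20 and Timp4. Adamts17 was above background in 1 tamoxifen and 2 oil readings, of 6 each, and was not tested. Of the 28 tested members, 25 were above background in all 12 readings. The exceptions were Mmp13 (5 tamoxifen and 3 oil readings), Mmp3 (5 and 6) and Mmp7 (2 and 5). Of the 10 neighbouring genes on chromosome 9, 5 were tested and 5 were above background in no reading.

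No member passed the test. The lowest adjusted p among the 28 was 0.67 (limma with Benjamini-Hochberg adjustment over all 20475 genes tested), and 0% of all genes passed. At an unadjusted p under 0.05 there were 4 members (14.3%), against 7.01% of all genes: Timp1, Timp2, Mmp2 and Adamts15. All 4 were lower in the samples labelled tamoxifen, and 4.01% of all genes were lower at that p. In all, 17 of 28 members had a mean ratio below 0 (60.7%, against 51.2% of all genes). Their median was -0.07, and that of all genes -0.004. By family, 8 of 13 Mmp, 6 of 12 Adamts and 3 of 3 Timp genes lay below 0, with medians of -0.03, 0.03 and -0.37. With the offset of 50 used here, no member reached a mean of 1.5-fold in either direction, as 1.59% of all genes did. By the scanner software's own ratio, Adamts18 at 1.03, Mmp2 at -0.62, Mmp7 at -0.60 and Adamts15 at -0.59 lay past 1.5-fold. The share of all genes past 1.5-fold by that ratio was not counted, so no comparison is drawn.

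Members differed in how far their couples shared a direction. The 3 couples of 9 members shared a sign (32.1%, against 30.2% of all genes). Of 28, 7 had a ratio below 0 on all 6 arrays (25%, against 7.21% of all genes): Timp1, Timp2, Mmp2, Mmp3, Mmp15, Adamts12 and Adamts15. None had a ratio above 0 on all 6 arrays, as 6.04% of all genes had. The lowest oil sample lay above the highest tamoxifen sample for 4 members (14.3%, against 7.14% of all genes), Timp1, Timp2, Mmp15 and Adamts15, and the reverse held for 0 members (5.2% of all genes). At the other end, the couples of 5 members spanned at least 1 log2 unit (17.9%, against 6.29% of all genes): Adamts18, Mmp12, Mmp8, Mmp11 and Timp3.

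**Figure D1:**
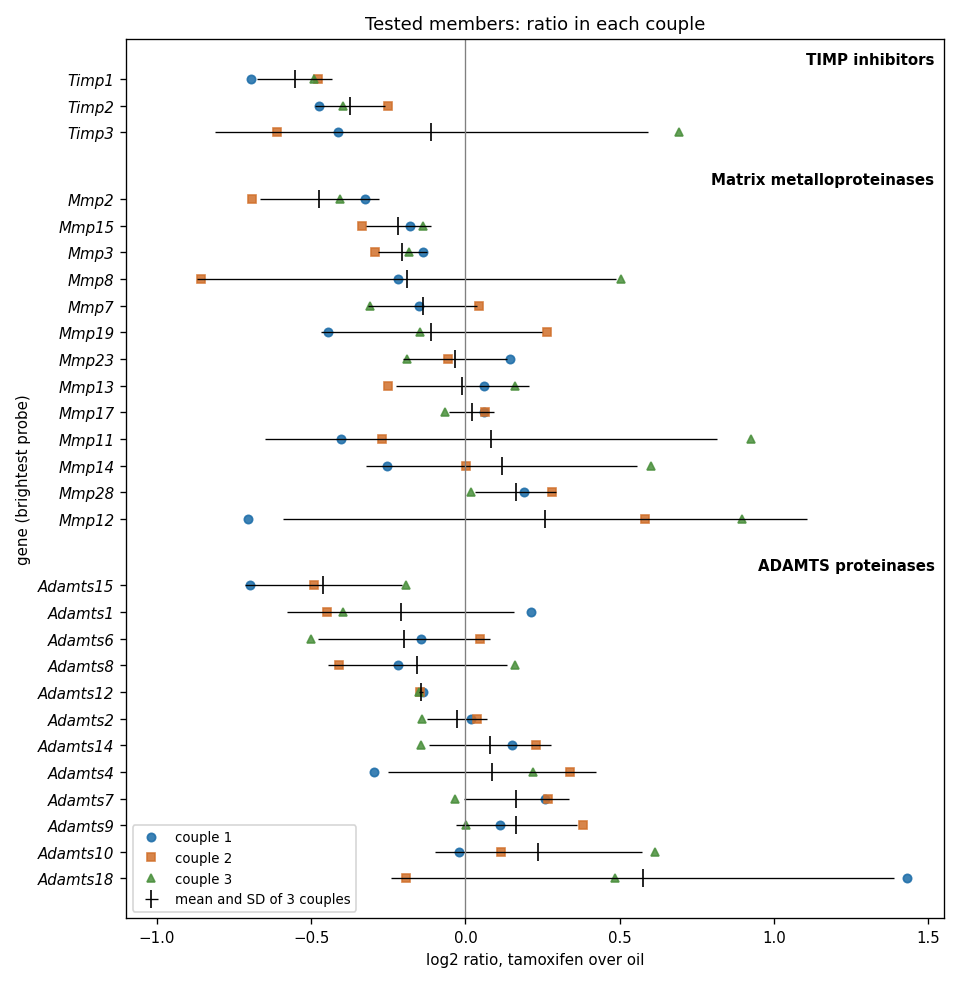
Log2 ratio of tamoxifen over oil for the 28 tested members, by family, with a point for each couple and the mean and SD of 3 couples as a tick and a bar. Timp1 (mean -0.55) and Adamts18 (mean 0.57) have the lowest and the highest mean, and the bars of Mmp12, Adamts18, Mmp11, Timp3 and Mmp8 are widest and cross 0.

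Among the inhibitors, Timp1 and Timp2 were lower in the sample labelled tamoxifen of every couple, and Timp3 was not. Timp1, a secreted inhibitor that stromal and inflammatory cells make on stimulation, had normalized log2 signals of 9.35, 9.97 and 9.55 in the tamoxifen samples 1, 2 and 3. In the oil samples they were 10.04, 10.45 and 10.04, so that all 3 oil samples lay above all tamoxifen samples. The ratios were -0.69, -0.48 and -0.49, with a mean of -0.55 ± 0.12, or 1.47-fold lower (95% interval -0.78 to -0.32). Its unadjusted p in limma was 0.0019 and its adjusted p = 0.67. Timp1 is X-linked, and couple 1, where Xist and Eif2s3y differed most, had its lowest ratio. Without couple 1 the mean was -0.48.

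Timp2, a widely made inhibitor that also takes part in the activation of the Mmp2 precursor at the cell surface, had log2 signals of 14.72, 14.66 and 14.73 in the tamoxifen samples. The oil samples were at 15.20, 14.91 and 15.13, again without overlap. Its ratios were -0.47, -0.25 and -0.40, with a mean of -0.37 ± 0.11, or 1.30-fold lower (95% interval -0.60 to -0.15; limma, adjusted p = 0.69, unadjusted 0.0087). The second Timp2 probe, whose sequence spans an intron, gave -0.48, -0.38 and -0.11 (mean -0.32 ± 0.19) and was lower on all 6 arrays too.

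Timp3, the inhibitor that stays bound to the matrix and also blocks ADAMTS enzymes, had log2 signals of 12.46, 12.33 and 12.79 in the tamoxifen samples and 12.87, 12.94 and 12.09 in the oil samples. Here the groups overlapped, because couple 3 ran opposite to the others, with ratios of -0.41, -0.61 and 0.69. The mean was -0.11 ± 0.70 (95% interval -0.83 to 0.61; limma, adjusted p = 0.94). A second Timp3 probe repeated this pattern, at -0.37, -0.66 and 0.65.

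Mmp2 is a gelatinase that cuts denatured collagen and basement membrane collagen IV, and fibroblasts are its known main source. Its log2 signals were 7.76, 8.12 and 7.57 in the tamoxifen samples and 8.09, 8.81 and 7.98 in the oil samples (chromosome 8 from 95376840 to 95376899, mm9). Couple 2 was brighter than the others in both channels, so the groups overlapped although each tamoxifen sample lay below its oil partner. The ratios were -0.32, -0.69 and -0.41, with a mean of -0.47 ± 0.19, or 1.39-fold lower (95% interval -0.75 to -0.20; limma, adjusted p = 0.69, unadjusted 0.0072). Mmp9, the other gelatinase, which neutrophils and macrophages are known to carry, was above background in no reading.

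Most fibroblast markers lay below 0 in each couple, as Mmp2 did. All 8 were tested and 7 of 8 were above background in all 12 readings. Below 0 were 6, 5 and 6 of them in couples 1, 2 and 3, with median ratios of -0.11, -0.06 and -0.26. The mean ratios were -0.09, 0.09 and -0.18, where 1 marker differed 2-fold or more in couple 2, and the summed log2 signal was 14.69 to 15.44 in the tamoxifen samples and 15.06 to 15.40 in the oil samples. Alveolar type 2 markers had mean ratios below 0 in every couple, of -0.23, -0.32 and -0.40 (mean -0.32 ± 0.08), and a summed log2 signal of 19.37 to 19.49 against 19.79 to 19.81 in oil. Monocyte and interstitial macrophage markers, 10 of 10 above background in all readings, were at mean ratios of -0.01, -0.29 and -0.11 (medians -0.02, -0.30 and 0.02), with sums of 15.45 to 15.80 against 15.41 to 16.23. Mesothelial markers, 4 of 6 tested and 3 of 6 above background in all readings, were at -0.44, -0.04 and -0.32, with sums of 11.83 to 11.87 against 11.81 to 12.60. The part of these cell types in the lower values of Timp1, Timp2, Mmp2 and the other members that shared their sign was not tested.

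The proteoglycan-cutting ADAMTS enzymes did not share a direction. Adamts15, which cuts aggrecan and versican, had log2 signals of 7.51, 8.11 and 7.97 in the tamoxifen samples and 8.21, 8.60 and 8.16 in the oil samples. The groups did not overlap, although the margin between the highest tamoxifen and the lowest oil sample was narrow. Its ratios of -0.70, -0.49 and -0.19 averaged -0.46 ± 0.25, or 1.38-fold lower (chromosome 9 from 30707033 to 30707092, mm9; limma, adjusted p = 0.69, unadjusted 0.015). Without couple 3 the mean was -0.59, and without couple 1 it was -0.34.

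Adamts9, a relative of the aggrecan-cutting enzymes, had the highest mean of this group. Its log2 signals were 10.70, 10.42 and 10.20 with tamoxifen and 10.59, 10.03 and 10.20 with oil, and the groups overlapped. Its ratios were 0.11, 0.38 and 0.001 (mean 0.17 ± 0.20; limma, adjusted p = 0.75). Its other 3 probes above background had means below 0, so no direction is given for this gene. Adamts1, Adamts4 and Adamts8, which also cut proteoglycans, lay at -0.21 ± 0.37, 0.09 ± 0.34 and -0.16 ± 0.29, each with both signs among its couples.

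**Figure D2:**
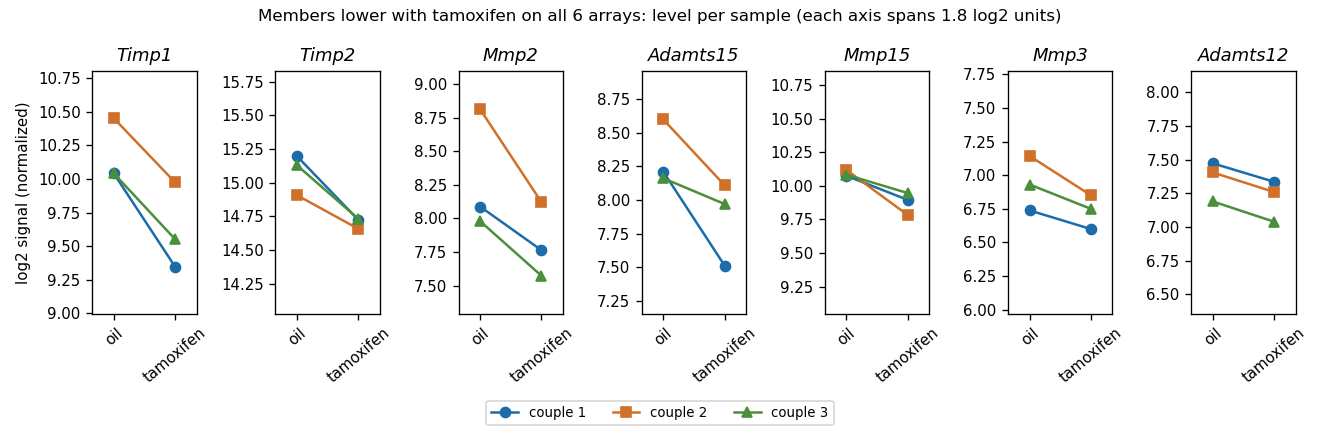
Normalized log2 signal of the 7 members that were lower with tamoxifen on all 6 arrays, with a line from the oil to the tamoxifen sample of each couple; every panel spans the same number of log2 units. Each line slopes down, steepest for Timp1, Mmp2 and Adamts15 and least for Adamts12, and the samples of couple 2 are brightest in Timp1, Mmp2, Mmp3 and Adamts15 in both groups.

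Mmp15, Mmp3 and Adamts12 were lower on all 6 arrays by smaller steps. Mmp15, a membrane-anchored enzyme of epithelial cells, had log2 signals of 9.90, 9.78 and 9.95 in the tamoxifen samples and 10.07, 10.12 and 10.08 in the oil samples. The groups did not overlap, and the oil samples lay close together. The ratios were -0.18, -0.34 and -0.14 (mean -0.22 ± 0.11, or 1.16-fold lower; limma, adjusted p = 0.69, unadjusted 0.054).

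Mmp3, stromelysin-1, activates other Mmp precursors and cuts many matrix proteins. It was dim, with log2 signals of 6.60, 6.85 and 6.75 against 6.74, 7.14 and 6.93 in oil, and the groups overlapped. The ratios were -0.14, -0.29 and -0.18 (mean -0.20 ± 0.08; limma, adjusted p = 0.69). Ratios of dim probes are pulled toward 0 here, as a constant is added to both channels, and Mmp3 was at -0.30 with an offset of 16 in place of 50 and at -0.57 by the scanner software's own ratio.

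Adamts12, which cuts cartilage oligomeric matrix protein, had log2 signals of 7.34, 7.26 and 7.04 against 7.47, 7.41 and 7.19 in oil. Its ratios were nearly equal, at -0.14, -0.15 and -0.15 (mean -0.14 ± 0.007). Even so the adjusted p was 0.71 in limma, which takes part of a gene's spread from all genes. Its mean was -0.27 by the scanner software's own ratio. Adamts7, which cuts the same substrate, had log2 signals of 7.48, 7.32 and 6.97 against 7.22, 7.05 and 7.003, with overlap, and ratios of 0.26, 0.27 and -0.03 (mean 0.16 ± 0.17, or 0.32 by the scanner software's ratio; adjusted p = 0.74).

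Mmp12, the macrophage metalloelastase, which degrades elastin and is known from mouse models of emphysema, went in opposite directions between couples. Its log2 signals were 10.01, 11.07 and 10.78 in the tamoxifen samples and 10.71, 10.49 and 9.88 in the oil samples. Couples 1, 2 and 3 had ratios of -0.71, 0.58 and 0.90, or 1.63-fold lower, 1.496-fold higher and 1.86-fold higher (mean 0.26 ± 0.85; limma, adjusted p = 0.87). The intron-spanning Mmp12 probe printed above gave -0.39, 0.46 and 0.58, and 1 more probe -0.34, 0.40 and 0.52, with the same signs at smaller sizes. So 3 probes gave this gene the same signs in each couple, and the dye-swapped arrays did too, with tamoxifen in Cy5 at -0.52, 0.56 and 0.88 and with tamoxifen in Cy3 at -0.90, 0.60 and 0.91.

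Alveolar macrophage markers also ran apart between couples, at -1.22, 0.73 and -0.63 as mean ratios of 12 genes. All 12 were above background in all 12 readings, and 12, 0 and 10 of them lay below 0 in couples 1, 2 and 3. Their summed log2 signal was 16.21 to 18.11 in the tamoxifen samples and 16.97 to 17.74 in the oil samples. In couples 1 and 2 these markers had the sign of Mmp12, and in couple 3 they had the opposite sign. Their part in the values of Mmp12 was not tested.

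Among the collagenases, Mmp8, stored in granules of neutrophils, had log2 signals of 8.11, 7.45 and 8.05 in the tamoxifen samples and 8.33, 8.30 and 7.54 in the oil samples. The groups overlapped, with ratios of -0.22, -0.86 and 0.50 (mean -0.19 ± 0.68; limma, adjusted p = 0.88). Neutrophil markers had mean ratios of -0.06, 0.32 and 0.004 in couples 1, 2 and 3, and medians of -0.12, 0.33 and -0.02. Below 0 were 6, 3 and 5 of the 8 tested. In couple 2, where 3 markers differed 2-fold or more, their mean had the opposite sign to Mmp8. Their part in the values of Mmp8 was not tested. Of these markers 8 of 10 were tested and 6 of 10 were above background in all readings, with Ngp in none, and their summed log2 signal was 14.39 to 14.83 with tamoxifen and 14.81 in each oil sample. Mmp13, the interstitial collagenase of mice, was dim, at 6.47, 6.42 and 6.51 against 6.41, 6.67 and 6.35, and its ratios of 0.06, -0.25 and 0.16 averaged -0.01 ± 0.22 (adjusted p = 0.99).

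**Figure D3:**
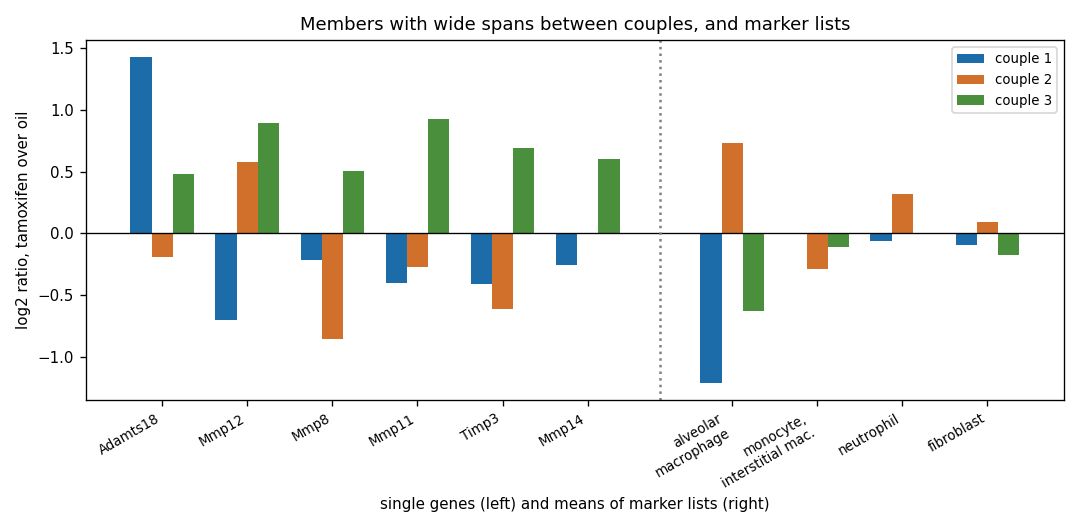
Log2 ratio of tamoxifen over oil in couples 1, 2 and 3, as bars, for the 5 members with the widest span between couples and Mmp14 (left of the dotted line) and as the mean of 4 marker lists (right). Mmp12 is below 0 in couple 1 and above 0 in the others, and alveolar macrophage markers are above 0 only in couple 2; the couple 2 bar of Mmp14 and the couple 3 bar of neutrophil markers are too close to 0 to be seen, as is the couple 1 bar of monocyte markers.

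Mmp11 and Mmp14 had their highest ratio in couple 3, as Timp3 and other members did, among them Mmp12 (0.90), Adamts10 (0.62) and Mmp8 (0.50). Mmp11, or stromelysin-3, known from fibroblasts around carcinomas, had log2 signals of 10.53, 10.48 and 11.09 in the tamoxifen samples and 10.94, 10.75 and 10.17 in the oil samples. Its ratios were -0.40, -0.27 and 0.92, so that the tamoxifen sample of couple 3 was the brightest of all and its oil partner the dimmest (mean 0.08 ± 0.73; limma, adjusted p = 0.96). Mmp14 anchors in the cell membrane and activates the Mmp2 precursor. Its log2 signals were 8.36, 8.19 and 8.50 against 8.62, 8.19 and 7.90, with ratios of -0.25, 0.003 and 0.60 (mean 0.12 ± 0.44, or 0.18 by the scanner software's ratio; adjusted p = 0.89).

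Alveolar type 1 markers had mean ratios of -0.36, -0.07 and 0.47 in couples 1, 2 and 3, and club cell markers -0.39, -0.72 and 0.43. These means had the signs of Timp3 and Mmp11, but single markers did so only in part: below 0 were 7, 3 and 1 of 8 type 1 markers (medians -0.23, 0.03 and 0.51) and 3, 6 and 2 of 7 club markers (medians 0.13, -0.51 and 0.62). All 8 type 1 and all 7 club markers were above background in all readings. The summed log2 signal of type 1 markers was 16.59 to 16.95 with tamoxifen and 16.73 to 16.99 with oil, and that of club markers 15.72 to 16.61 and 15.90 to 17.59. Smooth muscle and pericyte markers had the same signs in their means, at -0.11, -0.08 and 0.04, with 7, 6 and 3 of 9 below 0. Endothelial markers were at -0.13, 0.14 and 0.22, and ciliated markers at 0.04, -0.13 and 0.01. T and NK cell markers were at 0.16, 0.17 and 0.06, and B and plasma cell markers at 0.03, 0.13 and 0.21. The part of these cell types in the values of Timp3, Mmp11 and Mmp14 was not tested.

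Adamts18, an ADAMTS enzyme whose substrates are less well known, had the highest mean ratio of all members and also the widest span. Its log2 signals were 8.19, 7.31 and 7.36 in the tamoxifen samples and 6.75, 7.50 and 6.88 in the oil samples. Couple 1 alone gave 1.43, or 2.70-fold higher, the only value of 2-fold or more in any member and couple, where 1.54%, 1.19% and 1.33% of all genes reached that size in couples 1, 2 and 3. The other couples were at -0.19 and 0.48 (mean 0.57 ± 0.82; limma, adjusted p = 0.72). Another probe gave 1.27, -0.24 and 0.43, and 1 more probe 0.51, -0.10 and 0.17, with the same signs at smaller sizes. Averaged over its probes above background, the mean of the gene was 0.42. For the brightest probe, the mean was 0.15 without couple 1 and 1.03 by the scanner software's own ratio. Couple 1 was also the couple in which Xist and Eif2s3y differed most.

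Among enzymes that trim procollagen ends, Adamts2 had log2 signals of 10.47, 10.62 and 10.13 against 10.45, 10.58 and 10.27, and ratios of 0.02, 0.04 and -0.14 (mean -0.03 ± 0.10, limma, adjusted p = 0.95). With median centring in place of loess its mean was 0.003. Adamts14 had log2 signals of 7.86, 8.30 and 7.67 against 7.71, 8.07 and 7.81, and ratios of 0.15, 0.23 and -0.15 (mean 0.08 ± 0.20, adjusted p = 0.88). Neither separated the groups. Adamts6 had log2 signals of 7.24, 7.27 and 7.51 against 7.38, 7.22 and 8.01, and its ratios of -0.15, 0.05 and -0.50 averaged -0.20 ± 0.28, or -0.30 by the scanner software's ratio (adjusted p = 0.75).

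Mmp19 and Mmp28 are secreted enzymes outside the classical groups. Mmp19 had log2 signals of 9.69, 10.02 and 9.81 against 10.14, 9.75 and 9.96, and ratios of -0.45, 0.26 and -0.15 (mean -0.11 ± 0.36; limma, adjusted p = 0.88). Mmp28, or epilysin, an enzyme of epithelia, had log2 signals of 7.83, 7.60 and 7.49 against 7.64, 7.32 and 7.48, and its ratios of 0.19, 0.28 and 0.02 were above 0 in each couple (mean 0.16 ± 0.13; adjusted p = 0.72). The groups of Mmp28 overlapped nonetheless. The 7 tested members without values by sample here, Adamts1, Adamts4, Adamts8, Adamts10, Mmp7, Mmp17 and Mmp23, had mean ratios from -0.21 to 0.24, with SDs of 0.07 to 0.37 and adjusted p from 0.74 to 0.97. By the scanner software's ratio, Mmp7 was at -0.60, Mmp23 at -0.10 and Mmp17 at 0.03.

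Repeated measurements of a couple resembled each other more than different couples did, among the members and among all genes. Across the 28 tested members, the dye-swapped arrays of a couple correlated with r of 0.88, 0.81 and 0.91 in couples 1, 2 and 3, and couples correlated with each other with r of 0.14 (1 and 2), 0.02 (1 and 3) and 0.10 (2 and 3). Over all 20475 genes, the dye-swapped arrays correlated with r of 0.76, 0.77 and 0.79, and couples with r of 0.17 (1 and 2), 0.12 (1 and 3) and -0.02 (2 and 3). These correlations run over genes, which share arrays and are not independent. Of 18 further probes above background, in 8 members, 11 had the sign of the brightest probe of their gene, and 44 of 54 values by couple did. The 7 probes of opposite mean belonged to Adamts10 (3), Adamts9 (3) and Timp3 (1), so the mean of Adamts10, at 0.24 ± 0.34, has no settled direction either.

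**Figure D4:**
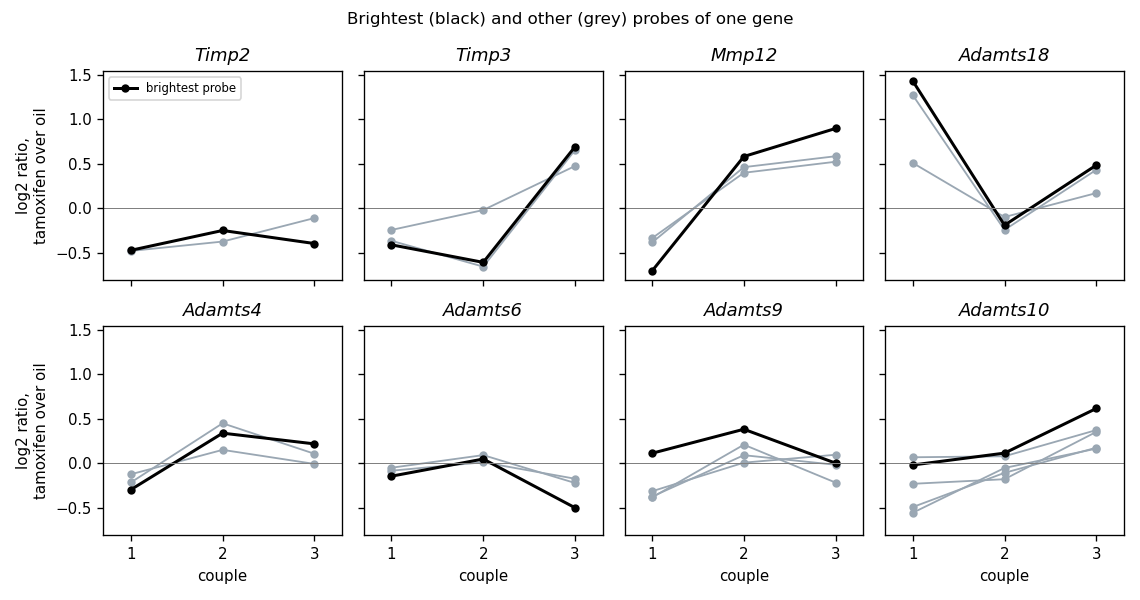
Log2 ratio of tamoxifen over oil in couples 1, 2 and 3 for the brightest probe (black) and the other probes above background (grey) of 8 members; lines join the values of a probe and carry no order. The probes of Mmp12 and Adamts18 share their signs in every couple, while those of Adamts9 and Adamts10 lie on both sides of 0 in couple 1.

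Genes around these enzymes were taken from 5 lists, and 0 of their members passed at the adjusted threshold in either direction. Over all genes, 51.2% lay below 0, with a median of -0.004. Of 18 tested genes of the plasminogen system and of membrane regulators of proteases, 2 were higher and 3 lower at an unadjusted p under 0.05 (3% and 4.01% of all genes). In this list 11 lay below 0 (61.1%), with a median of -0.10. Of 20 tested substrates that the members cut, 0 were higher and 3 lower. Below 0 lay 15 (75%, against 51.2% of all genes), with a median of -0.12. Of 10 tested ADAM proteases, membrane-bound relatives that shed surface proteins, 0 were higher and 0 lower, and 8 lay below 0 (80%). Of 6 tested ADAMTS-like genes, which lack the protease domain, 0 were higher and 0 lower, and 4 lay below 0 (66.7%).

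Of 15 tested regulators that act on Mmp promoters, from the AP-1, NF-kB and ETS families, 2 were higher and 1 lower at an unadjusted p under 0.05 (3% and 4.01% of all genes). Below 0 lay 8 of them (53.3%, against 51.2% of all genes). Fos, an AP-1 subunit, had log2 signals of 9.42, 9.23 and 9.64 in the tamoxifen samples and 9.82, 9.86 and 10.27 in the oil samples. Its ratios were -0.41, -0.63 and -0.62 (mean -0.55 ± 0.13; limma, adjusted p = 0.68). Etv4, an ETS factor known to act on Mmp promoters, had log2 signals of 11.89, 11.69 and 11.17 against 11.44, 10.96 and 10.89, and ratios of 0.45, 0.73 and 0.28 (mean 0.48 ± 0.23; adjusted p = 0.69). Of the 4 tested Mmp genes with an AP-1 motif, Mmp3 had the sign of Fos in all couples, while Mmp12, Mmp13 and Mmp7 had both signs. Mmp3, Mmp13 and Mmp7 lay near background in part of the readings. The part of Fos and other AP-1 subunits in the values of these genes was not tested.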

How the data were processed

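RNA of 3 tamoxifen and 3 oil samples was read on 6 two-colour Agilent arrays. The deposited scanner files hold spot intensity, as mean signal and median local background in Cy3 and Cy5, not normalized, per the file headers, with a log10 ratio of Cy5 over Cy3 after the scanner software's own background and dye correction. Flags for background, outlier and saturated spots are 0 or 1, per the file headers (0 spots were saturated). Per the submitters' processing notes, Agilent Feature Extraction was used, version 12.0.3.1. The deposited series table holds log2 ratios of Cy5 over Cy3: against the log10 ratios of the same arrays its slope was 3.32, which sets scale and direction. Its column medians were 0.14, -0.14 and -0.06 (Cy5 tamoxifen) and 0.13, -0.15 and -0.01 (Cy5 oil), so nothing was centred further.

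Intensities were corrected in limma 3.58.1 (R 4.3.3) with normexp (offset 50) and loess within arrays, control spots at weight 0, outlier spots left out. The brightest probe stood for a gene name, as the files give it; 44 of 46 members matched a RefSeq symbol by accession. A gene was tested if, in either group's channel, that probe passed the well-above-background flag on both arrays of 2 couples or more; 20477 of 36870 passed, and 2 with a missing spot were dropped. The dye-swapped arrays of a couple were averaged, and 0 was the null value for the 3 log2 ratios in a two-sided test (lmFit, eBayes, Benjamini-Hochberg over 20475 genes, threshold 0.05). A couple is a pair of samples with the same number in the labels, hybridised together, so the design is paired by construction. A sign test on 3 couples cannot pass. Levels by sample are log2 signals by channel after loess and Aquantile normalization. Precision is limited by the number of couples, with a median SE of 0.098 over all genes and 0.11 over members.

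The members, roles, gene lists and marker lists were chosen with earlier results of these data known. Values by sample were given for members with 1 sign on all 6 arrays, the highest or lowest mean of a role group, a span among the 5 largest, or a Timp name. Pathway genes were named with 1 sign on 6 arrays and a mean of at least 0.4. The fit was tested on simulated data. Protein sequences and an annotation of build mm9 were not used here, so exon and UTR positions of probes are not given. 1 gene of the pathway lists is not reported by name here.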

Additional observations from a re-analysis of the deposited data

How the results depend on the processing

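Over 18 alternatives, 0 members passed limma at an adjusted p under 0.05 in every one (4 members and 1436 genes at an unadjusted p under 0.05 in the fit reported). The count of genes called was 0 in the fit reported, 56 with 6 arrays and the couple as a random replicate block, 9 when a dye term was added to that fit (chosen after seeing the data), and 1 with the channels taken apart and no replicate block. Members at an unadjusted p under 0.05 numbered 7 of 46 with no filter on dim probes (6.97% of all genes). They numbered 6 of 28 with the mean over probes (6.95% of all genes) or with the dye term (8.48%). With a trended and robust variance there was 1 (Timp1), where only 79 genes (0.386%) passed that p. Leaving out a couple gave 4 to 7, against 4.86% to 7.4% of all genes. In these fits Adamts18 was higher with the dye term and without couple 2, Mmp12 was higher without couple 1, and the others were lower. The members' median was -0.0292 with no filter, -0.0342 with probes above background in all 12 readings, -0.0446 with the mean over probes, and -0.0929 to -0.0258 without a couple. With no filter, 28 of 46 members lay below 0 (60.9%, against 51.8% of all genes).

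Timp1, Timp2, Mmp2, Mmp3, Mmp15, Adamts12 and Adamts15 stayed below 0 in every alternative that gave them a value. These genes are the members with a ratio below 0 on every array. Their sign was thus fixed in advance with either dye alone, without a couple, and in all fits that reuse the same ratios. Only a change of background correction, normalization or probes could have moved it. Timp1 lay at -0.68 to -0.43 (limma, adjusted p 0.18 to 0.96) and Mmp2 at -0.62 to -0.37 (0.10 to 0.96). Of the 21 members with values by sample, others crossed 0: Adamts2 with median centring (0.00346), Adamts9 with the mean over probes (-0.0345), and Mmp11 (-0.0649), Mmp13 (0.0216) and Timp3 (0.11) with tamoxifen in Cy3 alone. Without 1 couple, 8 members crossed 0: Adamts2 ranged from -0.0603 to 0.0281, Mmp8 from -0.54 to 0.14, Mmp11 from -0.34 to 0.33, Mmp12 from -0.0621 to 0.74, Mmp13 from -0.10 to 0.11, Mmp14 from -0.13 to 0.30, Mmp19 from -0.30 to 0.0580 and Timp3 from -0.51 to 0.14. Each of the 8 members that crossed 0 without a couple had both signs among its couples. The cause of these shifts was not tested. Mmp3, Mmp7 and Mmp13 lay near background in part of the readings, which limits their ratios.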

Other observations

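Among the partners of these enzymes, a few genes had couples that ran far apart; they were picked after their values were seen and are given as values only. Bcan, brevican, a proteoglycan that Adamts4 and Adamts5 cut, had log2 ratios of tamoxifen over oil of -3.17, -2.63 and 0.09 by couple (mean -1.90 with an SD of 1.75 over 3 couples; limma, adjusted p = 0.69), and the 3 tamoxifen samples were at 9.09, 10.48 and 12.28 against 12.26, 13.11 and 12.19 in oil. The ratios of Adamts4 were -0.30, 0.34 and 0.22, and Adamts5 was above background in no reading.

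Spp1, osteopontin, a secreted protein that several Mmp enzymes cut, was at -2.04, 0.03 and -0.79 (mean -0.93 ± 1.04; limma, adjusted p = 0.69). The small proteoglycans Dcn and Bgn ran apart from each other, at -0.13, 1.71 and -0.43 for Dcn and -0.32, 0.46 and 1.26 for Bgn. Each of these 4 genes was well above background in all 12 readings, and each had both signs among its couples.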
